A study of Cynoglossus semilaevis with 24 samples.

Results

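The genes described here code for the precursors of gonadotropin-releasing hormone (GnRH), its receptors, the kisspeptin receptors and the dopamine D2 receptor of the Chinese tongue sole (Cynoglossus semilaevis), a flatfish with ZW sex chromosomes. They were found by gene symbol or by the product description in the deposited gene table, which gave 8 of 22773 genes: the precursor genes gnrh2 and gnrh3, 5 GnRH receptor genes and drd2. No row carried the description kiSS-1 receptor. The reference gene table names 2 other rows, described in the deposited table as G-protein coupled receptor 54 and its like, as the kisspeptin receptor genes kiss1ra and kiss1rb, and these were added, so that 10 genes were described. All 5 GnRH receptor rows carry the same description, a type II receptor-like product. The reference names 2 of them gnrhr1 and gnrhr4, and the others are given by their identifiers LOC103379388, LOC103388047 and LOC103379237. Reads from stretches that such related genes share could have been divided among them by the authors' counting, which limits how far their levels can be told apart.

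RNA was sequenced from brain, pituitary, liver and gonad of fish aged 2 years. Tissue and genetic sex made 8 groups: female brain, male brain, female pituitary, male pituitary, female liver, male liver, ovary and testis. Each group had 3 libraries, and each library was made from tissue of 5 fish mixed together, so p-values measure the spread between pools and not between single fish. The labels name no treatment.

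GnRH neurons of the brain release a short peptide, cut from a precursor protein, that drives gonadotropes of the pituitary to secrete luteinizing and follicle-stimulating hormone. In teleosts the GnRH2 peptide is typically made by midbrain neurons and GnRH3 by neurons of the terminal nerve and forebrain, and teleost nerve fibres reach the pituitary directly. Kisspeptin acts on its receptors to excite GnRH neurons in mammals, and in several teleosts dopamine, acting on D2 receptors, holds back gonadotropin release and the response to GnRH.

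Levels are FPKM as deposited, a read density scaled for transcript length and library size, with the mean ± SD over 3 pools. Fold differences come from edgeR's quasi-likelihood test on the estimated counts, log2 differences are female minus male, and a gene was called at an adjusted p under 0.05. A gene was tested where it reached 1 FPKM in at least 3 of the libraries compared. The total estimated count was 25293744 in ovary pool 1 and ranged from 10032337 to 15409531 in the others. Female libraries had 95 to 179 of 246 W-linked genes at 1 FPKM or more, and male libraries had 12 to 34. The organs carried their own markers. Summed over 8 pituitary hormone and factor genes, pituitaries held between 96881 and 150900 FPKM and other libraries at most 149 FPKM. Summed over 15 neuron genes, brains held between 2399 and 2730 FPKM and pituitaries between 288 and 335 FPKM. syt1 was the largest part of the pituitary sum, at means of 126 FPKM in females and 143 FPKM in males. It alone of the neuron genes was higher there than in brain (79.4 and 85.2 FPKM). Oocyte marker genes summed to 12.96 FPKM in female pituitary 3, to 33.95 FPKM in male pituitary 3 and to 12.26 FPKM in male brain 1, against 2.48 to 6.01 FPKM in the other brain and pituitary libraries. The oocyte list was not particular to ovary, as it summed to 909 to 977 FPKM in testis. dazl and ddx4 made up most of the testis sum, at means of 677 and 249 FPKM. In male pituitaries dazl and ddx4 averaged 4.96 and 2.78 FPKM, against 0.70 and 0.18 FPKM in female ones. Testis marker genes summed to 17.1 FPKM in male pituitary 3 and to at most 2.63 FPKM in the other pituitaries. Fewer cells of a type and less RNA per cell cannot be told apart in such bulk samples.

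**Figure D1:**
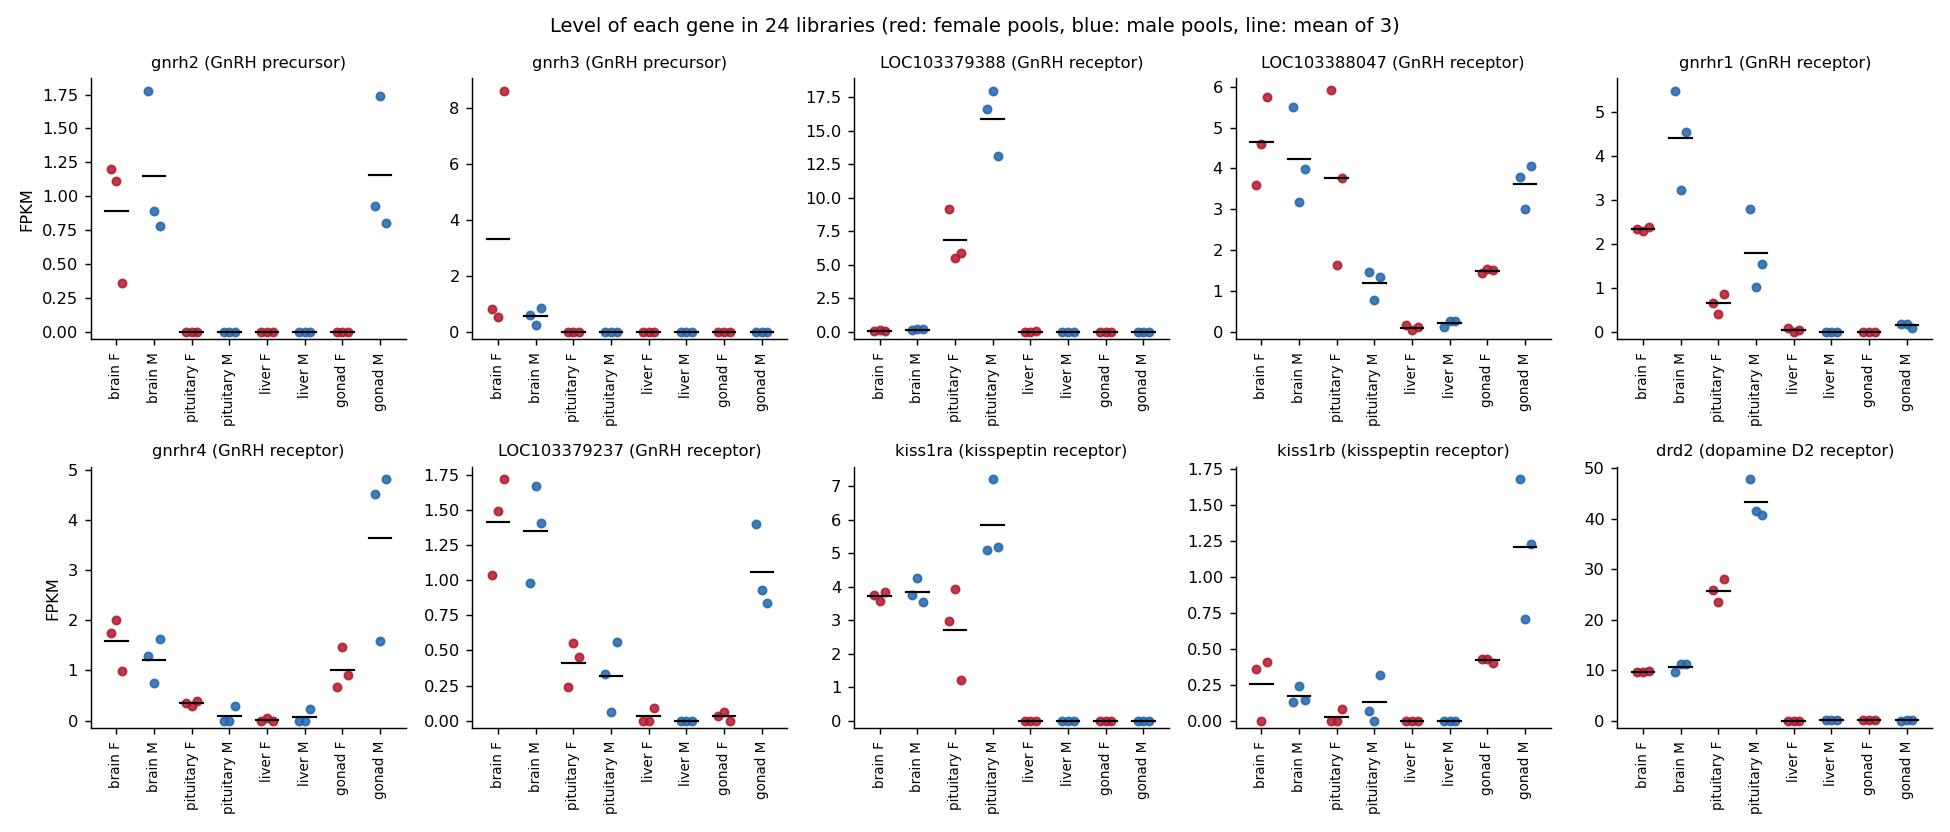
Level in FPKM (vertical axis, each panel with its own scale) of the 10 genes in the 8 groups (horizontal axis), with a point for each pool, female pools in red, male pools in blue and a line at the mean of 3. drd2 and LOC103379388 are highest in pituitary, the GnRH precursor genes are counted in brain and, for gnrh2, in testis, and no gene reaches 1 FPKM in liver.

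The precursor gene gnrh2, which codes for the GnRH peptide most conserved among jawed vertebrates, was detected in all 6 brain libraries at low levels. It stood at 1.2, 1.11 and 0.36 FPKM in female brains and at 1.78, 0.89 and 0.78 FPKM in male brains, from 14 and 22 counts over the 3 pools of each sex. The sexes overlapped, and gnrh2 was not called in brain by edgeR (adjusted p = 0.680; log2 difference -0.43, SE 0.63). No count of gnrh2 was recorded in any pituitary library. With the pituitary set at 3 counts over the group and both organs scaled to their total counts, gnrh2 was 4.93-fold higher in brain than in pituitary in females and 6.89-fold higher in males. These folds leave out the counting error of the 14 and 22 brain counts.

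Outside the brain, gnrh2 was counted in the testis. The 3 testis pools held 0.93, 1.74 and 0.80 FPKM of gnrh2, from 22 counts, and all 3 ovary pools held 0. All testis pools therefore lay above all ovary pools. Over the summed counts of each group, gnrh2 was 9.92-fold higher in testis when the ovary is set at 3 counts over the group. That fold leaves out the counting error of the 22 testis counts and scales to total counts alone. With total counts alone the median of all genes lay toward testis, at a log2 difference of -1.04, against -0.24 with the TMM scaling of the edgeR tests. The gene was below the filter in gonads. When the filter was lowered to 0.1 FPKM, gnrh2 reached it through the testis pools alone, so that it had to differ, and the test was passed (edgeR adjusted p = 0.00291), as it was with no filter (0.00400), in a comparison of organs in which most genes differ. The testis level of gnrh2, 1.16 ± 0.509 FPKM, was close to that of male brain, 1.15 ± 0.548 FPKM, and the pools of both overlapped. No liver library held a count of it.

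The precursor gene gnrh3 was detected in brain alone, at 0.83, 0.52 and 8.61 FPKM in the 3 female pools and at 0.62, 0.25 and 0.86 FPKM in the 3 male pools. The counts behind these levels were 3, 2 and 34 in females and 3, 1 and 4 in males. Female brain 3 was thus the high library, and the other 5 brain pools lay within 0.25 to 0.86 FPKM with the sexes intermixed. The gene reached 1 FPKM in this 1 library only and was not tested; with no filter it was not called by edgeR (adjusted p = 0.161; log2 difference 2.41, SE 1.04). The 18 libraries of pituitary, liver and gonad held no count of gnrh3. With the pituitary set at 3 counts over the group, gnrh3 was 13.7-fold higher in brain in females, most of it from female brain 3. In males the fold was 2.51. It rests on 8 brain counts, whose counting error it leaves out, so it is not a strict lower bound.

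To see what else stood out in that library, genes were sought that were at 1 FPKM or more in female brain 3 and more than 3-fold above every other brain library after adding 0.1 FPKM. This rule was chosen after the gnrh3 values were seen. It found 10 genes, of which gnrh3 had the largest ratio, 9.07. The others included npff, which codes for the precursor of neuropeptide FF, a peptide known from GnRH3 neurons of the terminal nerve in some teleosts. npff stood at 1.63 FPKM in female brain 3 and between 0 and 0.37 FPKM in the other brains. The ependymin-like gene LOC103391221, whose product is an abundant protein of fish brain fluid, stood at 13.7 FPKM against 2.59 to 4.07 FPKM. Also among the 10 were cxcl19, a chemokine gene of the interleukin-8 kind (4.42 FPKM against 0.10 to 0.56), ccr10, described as a chemokine receptor (3.29 FPKM against 0.08 to 0.56), and the cylicin-2-like gene LOC103377726 (12.8 FPKM against 0.06 to 1.45). The same rule applied to the other brain libraries found 3 genes in female brain 1, 7 in female brain 2, 81 in male brain 1, 9 in male brain 2 and 1 in male brain 3.

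**Figure D2:**
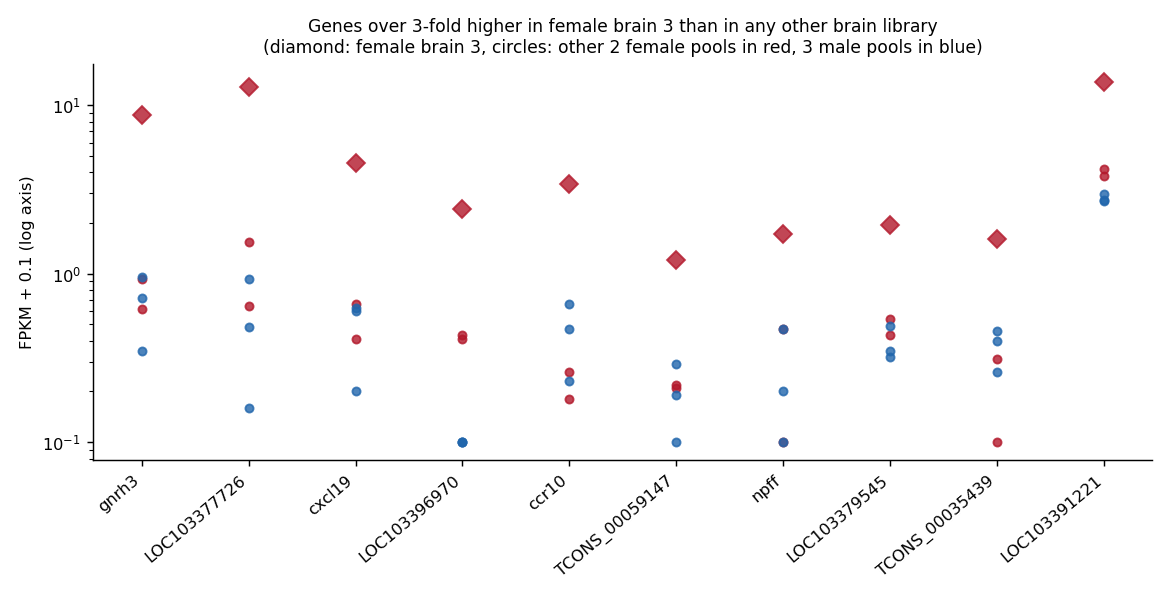
FPKM + 0.1 on a log axis of the 10 genes more than 3-fold higher in female brain 3 (diamonds) than in every other brain library (circles, female pools in red and male pools in blue). The gnrh3 diamond is at 8.61 FPKM before the 0.1 is added, and the 5 circles lie between 0.25 and 0.86 FPKM.

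GnRH receptors are G protein-coupled receptors that act mainly through Gq and phospholipase C in gonadotropes. In pituitary the receptor gene with the highest level was LOC103379388. Its female pools held 9.21, 5.48 and 5.92 FPKM and its male pools 16.6, 18.0 and 13.1 FPKM, from 299 and 729 counts in all. Every male pool lay above every female pool. LOC103379388 was 2.37-fold higher in male pituitaries (log2 difference -1.24, SE 0.22, edgeR adjusted p = 0.00254), and it stayed called under every alternative run, with adjusted p from 1.39e-05 to 0.0148.

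LOC103388047 differed in the other direction. It stood at 5.91, 1.64 and 3.77 FPKM in female pituitaries and at 1.46, 0.79 and 1.35 FPKM in male ones. All female pools lay above all male pools, but female pituitary 2 did so by little. The gene was 3.07-fold higher in females (log2 difference 1.62, SE 0.45, edgeR adjusted p = 0.0236). This call did not hold without female pituitary 1 or 3 or any of the 3 male pools in turn (edgeR adjusted p = 0.0547 to 0.101), nor without both pools numbered 3 (0.116, range 0.00213 to 0.116 over all alternatives).

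A further receptor gene, gnrhr1, stood at 0.66, 0.41 and 0.87 FPKM in female and at 2.80, 1.02 and 1.55 FPKM in male pituitaries, again with no overlap. It was 2.84-fold higher in males (log2 difference -1.50, SE 0.46, edgeR adjusted p = 0.0345). Only male pools reached 1 FPKM, so the gene had to differ in order to be tested. The call was lost without female pituitary 1 or 2 or male pituitary 1 (edgeR adjusted p = 0.0901, 0.114 and 0.168), and with limma on log2(FPKM + 1) (0.0623; range 0.0114 to 0.168). The 2 remaining receptor genes stayed below the filter in pituitary. LOC103379237 ranged from 0.06 to 0.56 FPKM over both sexes. gnrhr4 was counted in all female pools, at 0.29 to 0.39 FPKM, and in males only in pool 3, at 0.30 FPKM. That pool also had the highest sums of the oocyte and testis marker lists, whose part in this value was not tested.

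Of the 8 genes found by the rule, 4 were tested in pituitary and all 4 were called, 1 of them with more transcript in females and 3 with more in males; with kiss1ra the count was 5 of 5, 4 of them higher in males. The pools of all 5 were apart between the sexes in FPKM, as were those of 44.2% of all genes tested. Among all 15313 genes tested in pituitary 26.6% were called; the calls toward females made up 12.2% and those toward males 14.4% of the tested genes. The genes had first to reach the filter, and those below it are not in this count. Summed pituitary hormone and factor markers were also higher in female pituitaries, at 135892 to 150900 FPKM against 96881 to 100452 FPKM in males. gh1 made up most of the female sum, at a mean of 84266 FPKM against 20955 FPKM in males. The means of prl, tshba and pou1f1 were also higher in females, and those of smtla, cga, lhb and tbx19 were higher in males. Glia markers summed higher in males, to 677 to 779 FPKM against 423 to 530 FPKM. glul made up most of both glia sums, at means of 706 FPKM in males and 472 FPKM in females, and it averaged 363 FPKM in ovary. The 14 hypothalamic neuron markers summed to 69.36 to 100.03 FPKM in female and 10.9 to 18.2 FPKM in male pituitaries. agrp made up most of the female sum, at a mean of 74.0 FPKM against 4.76 FPKM in males, and npy was at 0 FPKM in both. The means of crh, nkx2-1, gal and hmx2 were also higher in females. Those of avp, pmch, hcrt, sim1a, otp, trh, hmx3 and hmx3a were higher in males. All of these other means were at most 4.26 FPKM. The part of these markers in the receptor differences was not tested.

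**Figure D3:**
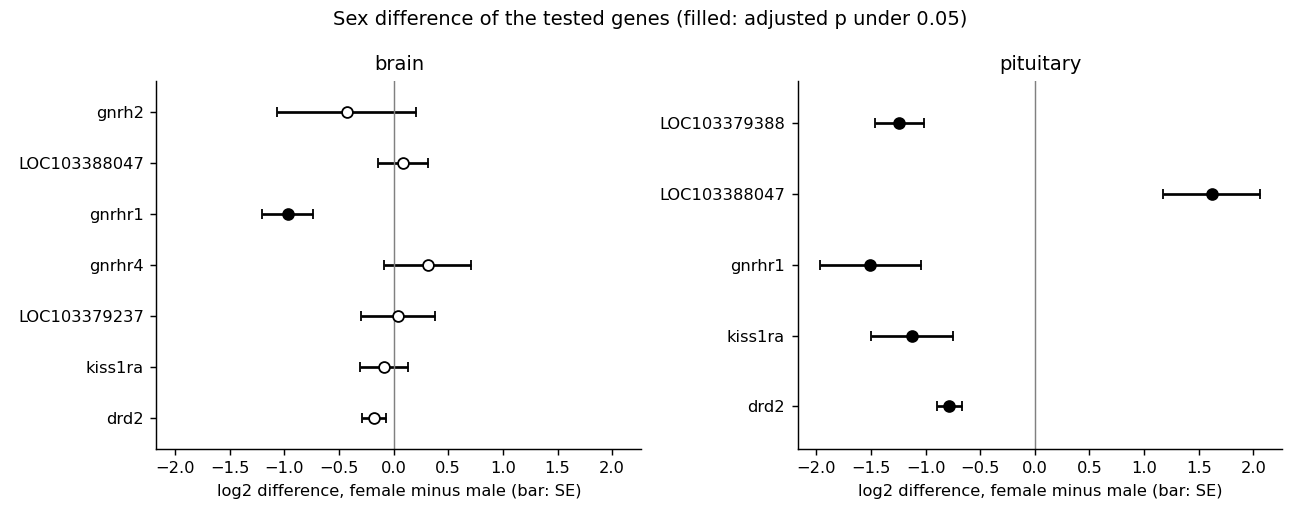
log2 difference, female minus male (horizontal axis, bars show the SE), of each tested gene in brain (left) and pituitary (right), from 3 pools of each sex; filled points have an edgeR adjusted p under 0.05. In brain gnrhr1 alone is filled, at -0.97; in pituitary all 5 are filled, LOC103388047 at 1.62 and the other 4 between -1.50 and -0.78.

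In brain the order of the receptor genes was another. LOC103388047 had the highest mean in females and was second to gnrhr1 in males, at 3.59, 4.6 and 5.75 FPKM in female and 5.50, 3.19 and 3.98 FPKM in male brains. These ranges overlapped almost fully, and the gene was not called by edgeR (adjusted p = 0.831; log2 difference 0.09, SE 0.23). The receptor gene gnrhr1 stood at 2.33, 2.28 and 2.39 FPKM in females and at 5.48, 3.21 and 4.53 FPKM in males. The female pools were nearly equal and all lay below the male pools. gnrhr1 was 1.96-fold higher in male brains (log2 difference -0.97, SE 0.23, edgeR adjusted p = 0.00921). It was the 1 gene called of the 6 by the rule that were tested in brain, or of 7 with kiss1ra. Among all 16385 genes tested in brain 20.3% were called, and those higher in males made up 10.9% of the tested genes. The call was lost without male brain 1 (edgeR adjusted p = 0.0541) and in a fit of all 24 libraries (0.105, range 0.00230 to 0.105). Male brain 1 was the highest pool and the male brain with the highest sum of the oocyte marker list. Hypothalamic neuron markers also summed higher in male brains, to 624 to 742 FPKM against 269 to 405 FPKM in females. Most of that gap came from avp, at means of 508 and 204 FPKM, and gal, at 62.6 and 9.97 FPKM. The means of agrp, nkx2-1, hmx2 and hmx3a were lower in males. The 7 hepatocyte markers summed lower in male brains, to 1894 to 2134 FPKM against 2893 to 3411 FPKM. apoa1 and tfa made up most of these sums. The means of fga (23.4 FPKM in female and 17.6 FPKM in male brains) and fgg (11.2 and 9.18 FPKM) were also lower in males. fgb averaged 18.2 FPKM in both sexes, and apoba and ttr averaged at most 0.217 FPKM. The part of these markers in the gnrhr1 difference was not tested.

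Both remaining receptor genes were low in brain and similar in their ranges. gnrhr4 stood at 0.99 to 2.01 FPKM in females and 0.74 to 1.62 FPKM in males (log2 difference 0.31, SE 0.40, edgeR adjusted p = 0.627). LOC103379237 stood at 1.04 to 1.72 FPKM and 0.98 to 1.67 FPKM (log2 difference 0.04, SE 0.34, edgeR adjusted p = 0.952). The pituitary receptor gene LOC103379388 was nearly absent from brain, at 0.07 to 0.14 FPKM in females and 0.11 to 0.21 FPKM in males, from 4 and 8 counts, and was not tested there.

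The summed FPKM of the 5 receptor genes was 8.78 to 10.9 in female brains, 9.02 to 13.4 in male brains, 8.37 to 16.4 in female pituitaries and 16.9 to 21.2 in male pituitaries. Its makeup differed between organs and between the sexes, in pituitary and, for the share of gnrhr1, also in brain. LOC103379388 made up 51.9 to 65.5% of the sum in female pituitaries and 77.7 to 90.6% in male ones. LOC103388047 made up 19.6 to 36.1% in female and 3.97 to 8.0% in male pituitaries. Both shares therefore lay apart between the sexes, in opposite directions. They are parts of the same sum, so a larger share of LOC103379388 leaves less for the others. In brain LOC103388047 had the largest share in females, 40.9 to 52.7%, with gnrhr1 at 21.7 to 26.5%. In male brains LOC103388047 at 34.0 to 41.2% and gnrhr1 at 35.6 to 41.0% could not be ranked beyond the spread of the pools. The gnrhr1 shares of female and male brains did not overlap, and those of LOC103388047 did. These shares are set by the same levels as the tests above and carry no test of their own.

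**Figure D4:**
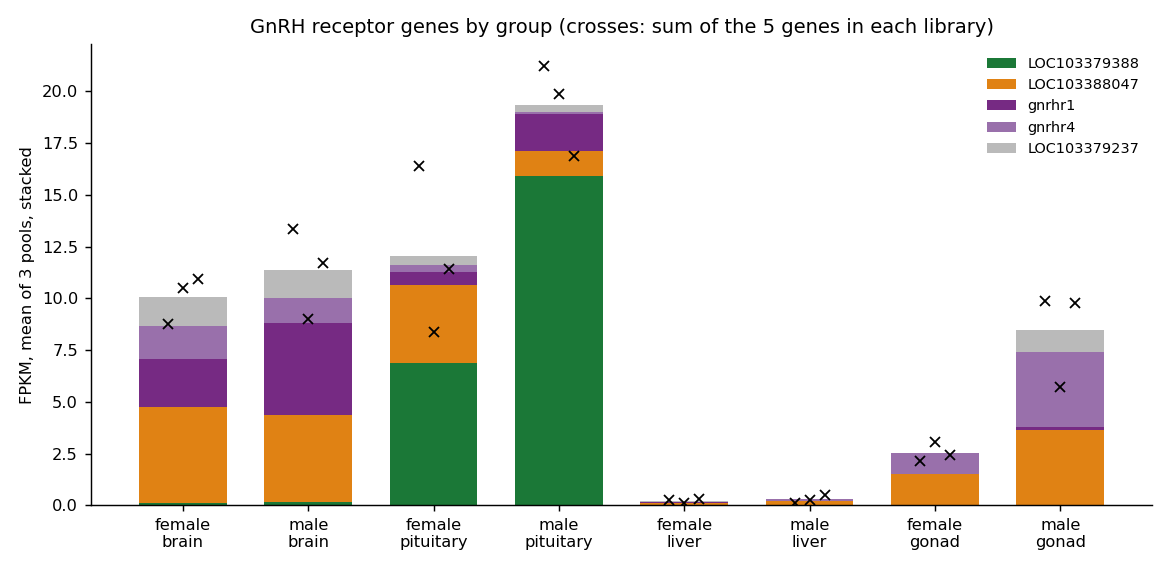
Mean FPKM of the 5 GnRH receptor genes stacked by group, with a cross for the sum of the 5 genes in each library. LOC103379388 fills most of the pituitary bars, LOC103388047 is the largest part of the ovary bar and of the female brain bar, and the liver bars are close to 0.

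Brain and pituitary were compared within each sex. The tested genes numbered 6 of 10 in females, with 4 called where 69.3% of all tested genes were called, and 5 of 10 in males, with 5 called against 67.7%. LOC103379388 was 74.4-fold higher in pituitary than in brain in females (edgeR adjusted p = 1.7e-07) and 105-fold higher in males (6.25e-09). gnrhr1 was 3.11-fold higher in brain in females (edgeR adjusted p = 0.000999), and LOC103379237 2.92-fold higher (0.00789). LOC103379388 and, in females, gnrhr1 and LOC103379237 passed the filter only through the organ where they were high. LOC103388047 was 3.09-fold higher in brain than in pituitary in males (edgeR adjusted p = 0.000831) and did not differ by the test in females (log2 difference of brain minus pituitary 0.09, SE 0.41, adjusted p = 0.859). gnrhr1 was 2.15-fold higher in brain in males (edgeR adjusted p = 0.0204), a call lost without male brain 1 or 3 or male pituitary 2 or 3 (0.0585 to 0.095; range 0.00237 to 0.095). Across these libraries the brain-minus-pituitary difference of LOC103388047 was 0.09 in females and 1.63 in males on the log2 scale. The test of its sex difference in brain against that in pituitary did not pass over all 12 libraries (-1.52, SE 0.55, edgeR adjusted p = 0.111). It passed without female pituitary 2 (0.0205, range 0.0205 to 0.257).

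In the gonads 3 of the receptor genes were detected in every testis pool at more than 0.8 FPKM. gnrhr4 stood at 4.52, 1.58 and 4.81 FPKM in testis and at 0.66, 1.47 and 0.91 FPKM in ovary. LOC103388047 stood at 3.79, 3.02 and 4.06 FPKM in testis and at 1.45, 1.53 and 1.52 FPKM in ovary. For both genes all testis pools lay above all ovary pools in FPKM, gnrhr4 by a narrow margin, and the pools of 86.3% of all tested genes were likewise apart between the gonads. Neither was called on the counts (gnrhr4 log2 difference -1.09, SE 0.49, edgeR adjusted p = 0.0563; LOC103388047 -0.48, SE 0.29, adjusted p = 0.142), in a comparison where 84.2% of 16195 tested genes were called. The median of all genes was -0.24 there with TMM scaling and -1.04 without scaling, a shift of -0.80. Without scaling both genes were called as higher in testis (edgeR adjusted p = 0.00313 for gnrhr4, range 0.00313 to 0.185; 0.00158 for LOC103388047, range 0.000357 to 0.398). Both were called with limma on log2(FPKM + 1) (0.00557 and 0.000357) and on log2(FPKM + 0.1) (0.00595 and 0.00059). The limma fits used FPKM as deposited, without TMM scaling, and the median of all genes was -0.85 and -1.03 in them. With TMM scaling gnrhr4 was called by edgeR without ovary pool 2 (adjusted p = 0.0359) or testis pool 2 (0.00872). The hepatocyte markers summed to 2275 FPKM in ovary pool 2, against 66.7 and 84.4 FPKM in ovary pools 1 and 3. Their part in the gnrhr4 values was not tested. Relative to the median of all genes, the difference of LOC103388047 was -0.24 with TMM scaling and -0.23 without, and that of gnrhr4 was -0.85 and -0.84.

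LOC103379237 stood apart more clearly between the gonads, at 1.40, 0.93 and 0.84 FPKM in testis and 0.03, 0.06 and 0 FPKM in ovary. These levels rest on 58 and 2 counts, a ratio of 39.2 after scaling to total counts, with a 95% interval of 10.4 to 332 that covers counting error only. With total counts alone the median of all genes lay toward testis, at a log2 difference of -1.04, against -0.24 with TMM scaling. LOC103379237 was below the filter. At 0.1 FPKM it was called in gonad (edgeR adjusted p = 0.000362), but it reached that filter through the testis pools alone and so had to differ. gnrhr1 was at 0.09 to 0.18 FPKM in testis and at 0 in every ovary pool. LOC103379388, the main pituitary receptor gene, had no count in any gonad library. No GnRH receptor gene exceeded 0.27 FPKM in liver, and 0 of the 10 genes were tested there, where 6.82% of the 10566 tested genes were called.

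Kisspeptin receptors couple to Gq and are known in mammals from GnRH neurons and, at lower levels, from pituitary cells. kiss1ra was detected in brain and pituitary and had no count in liver or gonad. Female brains held 3.75, 3.58 and 3.83 FPKM and male brains 3.76, 4.27 and 3.53 FPKM. The sexes overlapped and did not differ by the test (log2 difference -0.09, SE 0.22, edgeR adjusted p = 0.813). In pituitary the female pools held 2.96, 3.94 and 1.22 FPKM and the male pools 5.09, 7.21 and 5.19 FPKM. The lowest pool was female pituitary 3, and no female pool reached a male one. kiss1ra was 2.18-fold higher in male pituitaries (log2 difference -1.13, SE 0.37, edgeR adjusted p = 0.0461). That call was close to the threshold: it was lost without scaling (0.0507), with the lower filters (0.0543 and 0.0555), without any pool other than female pituitary 2 in turn (0.0546 to 0.145) and without both pools numbered 3 (0.0761, range 0.0232 to 0.145). In males kiss1ra was 1.73-fold higher in pituitary than in brain (edgeR adjusted p = 0.0138), lost without scaling (0.0505) and without male pituitary 2 (0.0634; range 0.00853 to 0.0634). In females the 2 organs did not differ by the test (log2 difference of brain minus pituitary 0.24, SE 0.37, edgeR adjusted p = 0.574).

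The other kisspeptin receptor gene, kiss1rb, lies on the Z chromosome of the reference. It had no count in liver, and in pituitary only female pool 3 (0.08 FPKM) and male pools 1 and 3 (0.07 and 0.32 FPKM) held counts. In brain it ranged from 0 to 0.41 FPKM. Its highest group was testis, at 1.68, 0.71 and 1.23 FPKM, against 0.43, 0.43 and 0.40 FPKM in ovary. The testis pools lay above the ovary pools in FPKM, but kiss1rb was under the filter. At 0.1 FPKM it was not called by edgeR (adjusted p = 0.261; log2 difference -0.67, SE 0.53). The 2 kisspeptin receptor genes thus had their highest levels in different organs, kiss1ra in male pituitary at 5.83 ± 1.2 FPKM and kiss1rb in testis at 1.21 ± 0.485 FPKM.

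The dopamine D2 receptor gene drd2, which codes for a receptor that inhibits adenylate cyclase, had the highest level of the 10 genes. Female pituitaries held 25.9, 23.4 and 28.0 FPKM and male pituitaries 47.8, 41.5 and 40.6 FPKM. The 2 sexes were far apart relative to their spread, and drd2 was 1.72-fold higher in males (log2 difference -0.78, SE 0.12, edgeR adjusted p = 0.000793). It stayed called under every alternative run, with adjusted p from 9.21e-07 to 0.00597. In brain the female pools held 9.70, 9.55 and 9.91 FPKM and the male pools 9.70, 11.1 and 11.3 FPKM. One male pool equalled a female pool to the second decimal, and drd2 was not called in brain by edgeR (adjusted p = 0.289; log2 difference -0.18, SE 0.11).

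The sex difference of drd2 in brain minus that in pituitary was 0.61 on the log2 scale (SE 0.16, edgeR adjusted p = 0.0261). Of the 8 genes tested for this, gnrh2 had no pituitary count, so its sex difference could not be compared between organs (SE 891). drd2 was the 1 gene called of the 8, where 7.72% of all 17366 tested genes were called. The adjusted p rose to between 0.0558 and 0.0739 without any female brain pool, male brain 1, female pituitary 2 or male pituitary 1 in turn (range 0.0107 to 0.0739), while the value ranged from 0.52 to 0.74. Pituitary exceeded brain 3.06-fold in females (edgeR adjusted p = 7.7e-08) and 4.62-fold in males (3.76e-08). The order of the group means was male pituitary, 43.3 ± 3.92 FPKM, female pituitary, 25.74 ± 2.30 FPKM, male brain, 10.7 ± 0.868 FPKM, and female brain, 9.72 ± 0.181 FPKM, of which only the 2 brain groups overlapped. Liver and gonads held at most 0.16 FPKM. A row described as a D2-like receptor, LOC103380303, lay outside the rule by its wording. Its highest group was ovary, at 0, 1.2 and 1.23 FPKM; it stood at 0.27 to 1.04 FPKM in brain and had no count in pituitary.

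Of 7 other dopamine receptor genes only drd3, of the same D2-like class, reached the filter in pituitary, at 1.87 to 4.41 FPKM in females and 2.39 to 5.79 FPKM in males (log2 difference -0.43, SE 0.38, edgeR adjusted p = 0.425). Its means were higher in pituitary than in brain in both sexes, as for drd2, but edgeR did not call it (log2 difference of brain minus pituitary -0.51, SE 0.34, adjusted p = 0.205 in females; -0.61, SE 0.32, adjusted p = 0.113 in males). It was called without female pituitary 3 in females (0.0319) and without male pituitary 1 in males (0.0129). The D1-like receptor genes drd1, drd1b and drd5a, whose products stimulate adenylate cyclase, were at most 0.77 FPKM in every pituitary library. They were higher in brain than in pituitary in both sexes (8.60-fold for drd1, 129-fold for drd1b and 9.48-fold for drd5a in females; 6.63-fold, 35.8-fold and 5.81-fold in males), each with an edgeR adjusted p under 0.05. They reached the filter through brain alone and so had to differ. Without female pituitary 1 the log2 difference in females went from 3.10 to 3.87 for drd1 and from 7.01 to 9.74 for drd1b. In female pituitaries drd1b was at 0 to 0.06 FPKM, so the size of its 129-fold difference is not well fixed. Over all alternatives its log2 difference ranged from 2.13 to 9.74. None of the 4 other receptor genes tested in brain was called between the sexes by edgeR. The tyrosine hydroxylase gene th, for the rate-limiting enzyme of dopamine synthesis, stood at 4.6 to 5.11 FPKM in female brains, 4.92 to 6.79 FPKM in male brains and at most 0.15 FPKM in pituitary. It was not called in brain by edgeR (adjusted p = 0.265; log2 difference -0.29, SE 0.17).

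**Figure D5:**
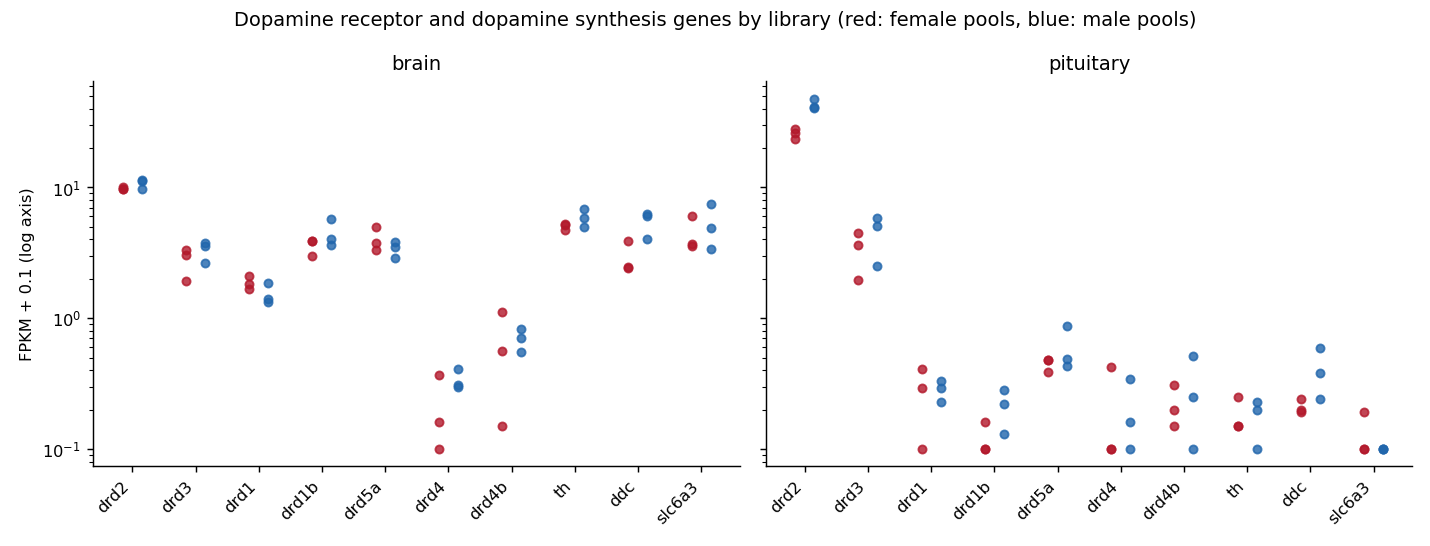
FPKM + 0.1 on a log axis of dopamine receptor genes and of the dopamine synthesis and transport genes th, ddc and slc6a3, by library, in brain (left) and pituitary (right), female pools in red and male pools in blue. In pituitary drd2 lies above all the others shown, at 23.4 to 47.8 FPKM, and drd3 is the only other receptor gene that reaches 1 FPKM.

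Among 16 genes of dopamine synthesis, storage and removal, 14 were tested in brain and 3 were called, all higher in males, a share of 21.4% against 20.3% of all genes. The list's median log2 difference was -0.17 and that of all genes 0.01. A second tyrosine hydroxylase gene, LOC103382582, stood at 0.60 to 1.19 FPKM in female and 1.48 to 2.31 FPKM in male brains and was 2.38-fold higher in males (edgeR adjusted p = 0.0145). It reached the filter through the male pools and 1 female pool. Its call was lost without female brain 1 or 2 or male brain 3 (0.0625, 0.0613 and 0.0523) and when all 24 libraries shared a fit (0.117, range 0.00797 to 0.117). ddc, for the decarboxylase that forms dopamine, stood at 2.33 to 3.80 FPKM and 3.97 to 6.20 FPKM and was 1.96-fold higher in males (edgeR adjusted p = 0.0108), lost without female brain 1 or 2 (0.0524 and 0.0542) and when all 24 libraries shared a fit (0.0932, range 0.00259 to 0.0932). In pituitary 2 of 11 tested genes were called, both higher in males (18.2% against 26.6% of all genes, with 14.4% higher in males; median -0.22 against 0.01). The first was gch1, for the initial enzyme of the cofactor that tyrosine hydroxylase needs, 1.56-fold higher at 9.0 ± 1.81 FPKM in females and 13.8 ± 1.27 FPKM in males (edgeR adjusted p = 0.0166). It lost its call without female pituitary 2 or male pituitary 1 or 2 (0.0653, 0.0596 and 0.0553, range 0.00707 to 0.0653). The other was the vesicular amine transporter-like gene LOC103387798, 2.41-fold higher (edgeR adjusted p = 0.0283). Its call was lost without female pituitary 1 or 3 or male pituitary 1 (0.0737, 0.0918 and 0.129) and without both pools numbered 3 (0.0741, range 0.0115 to 0.129).

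Of 22 genes that act downstream of the D2 receptor, 20 were tested in brain, of which 1 was called as higher in females and 5 as higher in males (30.0% against 20.3% of all genes, median -0.14 against 0.01). In pituitary 18 were tested, of which 4 were called as higher in females and 2 as higher in males (33.3% against 26.6% of all genes, median -0.19 against 0.01). The adenylate cyclase 8 gene adcy8 was higher in males in both organs, 1.68-fold in brain (5.19 to 6.14 against 8.38 to 9.94 FPKM, edgeR adjusted p = 0.00011) and 1.72-fold in pituitary (3.41 to 4.44 against 6.17 to 7.27 FPKM, adjusted p = 0.00229). In brain the receptor kinase genes grk6 and grk4 were called in opposite directions, grk6 1.38-fold higher in females (edgeR adjusted p = 0.00196) and grk4 1.31-fold higher in males (0.00366). The fit of all 24 libraries ended the call of grk6 (0.227, range 0.000425 to 0.227) and limma on log2(FPKM + 1) that of grk4 (0.0502, range 0.000245 to 0.0512). In pituitary gnai2, for an inhibitory G protein subunit that D2 receptors use, stood at 2.03 to 7.06 FPKM in females and 0.16 to 0.44 FPKM in males and was 13.9-fold higher in females (log2 difference 3.79, edgeR adjusted p = 0.00119; 3.11 without female pituitary 1). It reached the filter through the female pools alone and so had to differ. The potassium channel gene kcnj3, whose channel opens on G protein release, was 1.56-fold higher in females, at 6.16 ± 0.583 FPKM and 3.87 ± 0.424 FPKM in the 2 sexes (edgeR adjusted p = 0.0109). adcy6 was 1.47-fold higher in males at the edge of the threshold (edgeR adjusted p = 0.0488). It was not called without female pituitary 1 or 3 or male pituitary 2 or 3 (0.156, 0.125, 0.175 and 0.0709), without both pools numbered 3 (0.144) or with median-ratio scaling, no scaling, lower filters or limma (0.0509 to 0.104; range 0.0369 to 0.175).

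The table's KEGG annotation placed 123 genes in the GnRH signaling pathway, with the genes found by the rule left out of this list. In brain 108 were tested and 24 called, 12 in each direction, a share of 22.2% against 20.3% of all genes. In pituitary 103 were tested and 31 called, 15 toward females and 16 toward males, a share of 30.1% against 26.6%. The list's medians were 0.01 in brain and -0.02 in pituitary, against 0.01 for all genes in both, so its genes did not lie to one side. The W-linked gene LOC103397278, for a Gq alpha subunit-like protein, was 4.80-fold higher in female brains (edgeR adjusted p = 1.75e-06) and 4.49-fold higher in female pituitaries (0.000131). hbegfa, for a growth factor precursor, was 1.75-fold higher in female brains (edgeR adjusted p = 0.0038), and the stress kinase gene mapk8a 1.43-fold higher in male brains (0.000232). The fit of all 24 libraries ended both calls (0.135 for hbegfa, range 0.00104 to 0.135; 0.0525 for mapk8a, range 1.13e-06 to 0.0525). In pituitary june, described as jun-D-like, was 3.31-fold higher in females (edgeR adjusted p = 0.000874). mapk12b, for a p38-type kinase, was 2.03-fold higher in males (edgeR adjusted p = 0.0351). That call was lost without female pituitary 1 or 2 or male pituitary 1 or 2 (0.0988, 0.117, 0.0798 and 0.151) and with limma on log2(FPKM + 1) (0.0537, range 0.00803 to 0.151). The adenylate cyclase 2-like gene LOC103394729 was 1.91-fold higher in males (edgeR adjusted p = 0.0145; 0.0565 without both pools numbered 3, range 0.00235 to 0.0565). It stood at 0.95 to 1.02 FPKM in female and 1.67 to 2.01 FPKM in male pituitaries. LOC103394729 reached the filter through the male pools and 1 female pool. adcy8 is in this list as well.

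Gonadotropes are the target of GnRH, and of 11 genes for gonadotropin subunits, their receptors and pituitary factors, 7 were tested in pituitary, of which 1 was called as higher in each sex (28.6% against 26.6% of all genes). The common alpha subunit gene cga stood at 14161 to 20695 FPKM in female and 24272 to 26058 FPKM in male pituitaries and was 1.48-fold higher in males (edgeR adjusted p = 0.0115; 0.101 without both pools numbered 3, range 0.000742 to 0.101). The luteinizing hormone beta gene lhb was not called (26799 ± 5414 against 32530 ± 848 FPKM, log2 difference -0.31, edgeR adjusted p = 0.123); without female pituitary 1 it was (0.00509, range 0.00509 to 0.492). egr1, a transcription factor gene that GnRH induces in mammalian gonadotropes, was 14.1-fold higher in female pituitaries, at 32.3 to 135.7 against 3.51 to 8.94 FPKM (log2 difference 3.82, edgeR adjusted p = 0.0300; 4.44 without both pools numbered 3). Its call was lost without any pituitary pool other than female pituitary 3 in turn (0.0748 to 0.0967; range 1.74e-06 to 0.102). In brain egr1 was 4.04-fold higher in females, the 1 gene called of 6 tested in that list (edgeR adjusted p = 0.00143).

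Of 13 genes for peptides and receptors that regulate GnRH neurons, 7 were tested in brain and 3 called, all higher in males (42.9% against 20.3% of all genes called and 10.9% called as higher in males; median -0.66 against 0.01). gal, for the peptide galanin, was 6.45-fold higher in male brains (edgeR adjusted p = 3.68e-05) and is itself among the hypothalamic neuron markers, whose sums in brain are given above with gnrhr1. The protachykinin-like gene tac4 was 2.63-fold higher in males (edgeR adjusted p = 0.0470), a call lost when any of the 6 pools was left out (0.0597 to 0.148), with DESeq2 (0.133), without scaling (0.0541), with lower filters (0.0828 and 0.0737) and when all 24 libraries shared a fit (0.136, range 0.0111 to 0.148). tac4 stood at 0.70 to 1.31 FPKM in female and 2.09 to 3.00 FPKM in male brains. It reached the filter through the male pools and 1 female pool. In pituitary 2 of the 13 were tested, and both were called as higher in males, where 14.4% of all tested genes were. The Z-linked neuropeptide FF receptor gene npffr1l2 stood at 0.38 to 1.29 FPKM in females and 2.59 to 3.51 FPKM in males (4.13-fold, log2 difference -2.05, edgeR adjusted p = 0.00558; -2.75 without both pools numbered 3). It reached the filter through the male pools and 1 female pool. The protachykinin-like gene LOC103388335 was 1.93-fold higher in males, at 11.9 ± 1.86 FPKM in females and 22.2 ± 4.89 FPKM in males (edgeR adjusted p = 0.00685).

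For the genes with a mean of at least 5 FPKM in a group, the most similar patterns over the 24 libraries were sought by Pearson correlation of log2(FPKM + 1) among 15064 genes, as a description in which organs set most of the variation. For drd2 these were st6galnac5, a sialyltransferase gene (r = 0.998), st18, a zinc finger transcription factor gene (r = 0.996), and LOC103385959, described as zinc finger protein 385A-like (r = 0.995). Their means were 30.8, 63.6 and 20.9 FPKM in female and 38.3, 78.3 and 28.7 FPKM in male pituitaries. For LOC103379388 they were TCONS_00035113, described as kinocilin (r = 0.993), the TRIM32 ubiquitin ligase gene LOC103389760 (r = 0.990) and the agouti-signaling protein-like gene LOC103377057 (r = 0.990). LOC103377057 averaged 71.8 FPKM in female and 150 FPKM in male pituitaries and at most 0.637 FPKM in every other group. For kiss1ra they were slc16a3b, a monocarboxylate transporter gene (r = 0.981), the syntaphilin-like gene snpha (r = 0.981) and kiaa1644 (r = 0.981), all of which had higher means in male than in female pituitaries.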

How the data were processed

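The deposited table held, per the file headers, FPKM and an estimated count for each of 22773 genes in 24 libraries. The submitters' processing notes name Bowtie2 and TopHat2; what each did, the quantifier, the genome build and the annotation are not given in the sources used here, so no coordinates or sequences are printed. Estimated counts deposited by the authors were whole in 97.1 to 98.4% of values and were rounded. Symbols came from the table and from the gene table of the reference Cse_v1.0, in which 19502 identifiers matched.

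Females were compared with males in each tissue, and brain with pituitary in each sex, by edgeR 4.0.16 in R 4.3.3 (quasi-likelihood test, TMM scaling, robust fit) with Benjamini-Hochberg adjustment over all genes tested. The sex difference in brain against that in pituitary was an interaction term over 12 libraries. The SE is the absolute log2 difference over the square root of F. Where a group had no count, folds set 3 counts over that group. The counts of the other group were taken as observed, without their counting error, and both were scaled to total counts alone. Alternatives were median-ratio scaling, no scaling, filters at 0.1 and 5 FPKM or none, DESeq2 1.42.0, limma 3.58.1 on log2(FPKM + 1) and on log2(FPKM + 0.1), all 24 libraries in one fit, a replicate block and leaving out each library; leaving out both pituitary libraries numbered 3 was chosen after seeing the data. Same-numbered female brain and pituitary pools deviated together (r = 0.154 to 0.212 in all 3 pairs), a pairing read from the data and not stated in the labels. In males the same-numbered pairs gave r = 0.0371, 0.242 and 0.118, and pairs of unlike number -0.245 to 0.133. The members and lists were chosen with earlier results of these data known. Every member was named; of each list, the 2 called genes with the largest difference in each direction in brain and in pituitary; and the 3 genes most alike to each member averaging at least 5 FPKM in a group.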

Additional observations from a re-analysis of the deposited data

Results flagged for a closer look

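The dopamine D2 receptor gene drd2 was marked for a closer look because its sex difference differed between organs by the test of that difference itself. The female-minus-male difference in brain less that in pituitary was 0.61 on the log2 scale (SE 0.16), with an edgeR adjusted p of 0.0261 that lay between 0.0107 and 0.0739 under the alternatives. Male pools lay above female pools in pituitary in all 3 cases and overlapped them in brain. Without both pituitary libraries numbered 3 the adjusted p was 0.0115.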

How the results depend on the processing

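Numbers of called genes stayed within 1.5 times under all alternatives except the following. All 24 libraries in one fit gave 1122 in brain (main 3318) and 1715 in liver (main 721), and a filter at 5 FPKM gave 318 in liver. Leaving out each library in turn gave 2250 to 3156 genes in brain, 2662 (without female pituitary 2) to 4388 in pituitary (main 4072), 344 to 745 in liver, 13051 to 13503 in gonad, 10653 to 11407 for female and 10194 to 11308 for male brain against pituitary, and 811 to 1918 for the sex difference in brain against that in pituitary (main 1340). With a replicate block the numbers were 3062, 3347, 952, 13407, 11725, 11417 and 1607 in the same order; the block changed no call of a GnRH, kisspeptin receptor or dopamine D2 receptor gene, and of the list genes named it ended those of tac4 (edgeR adjusted p = 0.0798), LOC103387798 (0.0502), egr1 in pituitary (0.102) and mapk12b (0.0802). Within a tissue, female and male pools that share a number did not all deviate together (r = -0.0216 to 0.01 in brain).

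Without scaling the share of calls higher in females was 56.9% in place of 46.2% in brain, 38.9% in place of 27.6% in liver and 31.8% in place of 46.1% in gonad. The share higher in brain was 62.9% in place of 51.3% in females and 60.7% in place of 51.5% in males.

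Directions turned only for genes that were not called. All 24 libraries in one fit gave -0.016 for LOC103379237 in brain, and leaving out both pituitary libraries numbered 3 gave 0.082 for drd3 in pituitary. With each library left out in turn, the log2 difference of gnrh2 in brain ran from -0.69 to 0.053. Its fitted difference between organs ran from -0.69 to 0.0535, but gnrh2 had no pituitary count. Those values follow its brain difference and measure no difference between organs. In brain the same fits gave -0.15 to 0.20 for LOC103379237, -0.10 to 0.33 for LOC103388047 and -0.62 to 0.055 for slc6a3. In female brain against pituitary they gave -0.27 to 0.59 for LOC103388047 and -0.11 to 0.61 for kiss1ra. The difference of LOC103379237 between organs ran from -0.92 to 0.13. The cause was not tested. At 1 to 34 counts per library, no sex difference of gnrh2 or gnrh3 was detectable in brain.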
